A study of Mus musculus with 30 samples.

Results

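A list of 10 genes was taken from the 54232 genes of the count table, all for enzymes that build fatty acids or store them as triglyceride, and their mRNA levels are described here in 3T3-L1 cells, a mouse preadipocyte line that turns into adipocytes in adipogenic medium. They were chosen by gene symbol, as Fasn, Acaca, Acly, Me1, Scd1, Scd2, Elovl6, Gpam, Dgat1 and Dgat2. All 10 passed the filter of more than 14 counts over the 30 libraries, as did 20139 genes in all. The cells of every group were kept for 5 days in adipogenic medium with insulin, dexamethasone, isobutylmethylxanthine and indomethacin, and each group holds 5 libraries. Control cells had this medium alone. The other groups were given pNaKtide at 0.7 µM, IS at 100 µM, IS at 100 µM with pNaKtide at 0.7 µM, oxLDL at 50 µg/mL, or oxLDL at 50 µg/mL with pNaKtide at 0.7 µM. IS is indoxyl sulfate, a solute that accumulates in renal failure. It was used as a model of uremia. OxLDL is oxidized low density lipoprotein, used as a source of oxidant stress. The peptide pNaKtide is the cell-permeant form of NaKtide, which was designed to block signaling from Na,K-ATPase through Src. The labels give a treatment of 5 days, the study's methods a shorter one with daily doses, and which of these applies to the libraries is open. The line is clonal and cultured, so the groups show what these cells do in a dish, and nothing in the labels says whether the 5 libraries of a group came from separate cultures. The p-values therefore measure the spread between these libraries, which may be technical.

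De novo lipogenesis turns surplus carbohydrate into fat. Citrate leaves the mitochondrion and is split by Acly into cytosolic acetyl-CoA, Acaca carboxylates this to malonyl-CoA, and Fasn joins these units into palmitate with NADPH, part of which comes from Me1. Elovl6 lengthens palmitate to stearate, Scd1 and Scd2 place a double bond in such chains, Gpam attaches the initial acyl chain to glycerol 3-phosphate, and Dgat1 and Dgat2 add the last, which completes a triglyceride. In adipocytes the genes of the pathway are switched on during differentiation by insulin, largely through the transcription factors SREBP-1c, ChREBP and LXR.

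The libraries held between 6945498 and 15159877 counts on genes, with a median of 11524210. On the first principal component of log2 CPM (counts scaled to library depth by the TMM factors of edgeR), which held 64.4% of the variance, Control replicate 1 scored -25.8 while the other Control libraries scored 6.47 to 29.9, and IS replicate 4 scored 28.2 while the other IS libraries scored -36.7 to -23.2. Both libraries thus sat on the side of the other group. Also apart from their own groups lay oxLDL + pNaKtide replicate 4 (67.5, others 14.5 to 33.2) and pNaKtide replicate 3 (-5.36, others 15.9 to 36.6). Results that rest on these libraries are given with and without them. For the sums of marker lists, here and below, CPM is scaled by library size alone, without the TMM factors. The cells carried the markers of adipocytes, with a summed level of 10 such genes between 11650 and 16703 CPM, although leptin (Lep) had only 76 counts over the 30 libraries. The summed level of 8 preadipocyte and fibroblast genes was 3055 to 5523 CPM. Of 6 macrophage and blood cell genes Ptprc and Itgam were at 0 in every library and Adgre1 had 4 counts in all, while Cd68 had 1569, Lyz2 518 and Csf1r 65, and the list summed to 4.51 to 8.11 CPM. The 4 endothelial genes summed to at most 0.633 CPM.

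In the genome build GRCm38, Fasn (ENSMUSG00000025153) lies on the minus strand of chromosome 11 from 120805846 to 120824547, Acly (ENSMUSG00000020917) on the same strand from 100476353 to 100528000, and Acaca (ENSMUSG00000020532) on the plus strand from 84129672 to 84401651. Elovl6 (ENSMUSG00000041220) is on chromosome 3 at 129532355 to 129638495, plus strand. Scd1 (ENSMUSG00000037071, 44394455 to 44407879, minus strand) and Scd2 (ENSMUSG00000025203, 44293674 to 44306864, plus strand) lie near each other on chromosome 19, which also holds Gpam (ENSMUSG00000024978, 55067268 to 55127238, minus strand). Me1 (ENSMUSG00000032418) is on chromosome 9 at 86581371 to 86695953, Dgat1 (ENSMUSG00000022555) on chromosome 15 at 76502015 to 76511953 and Dgat2 (ENSMUSG00000030747) on chromosome 7 at 99153658 to 99182719, all on the minus strand. The transcripts of Scd1 and Scd2 shared 145 words of 50 bases, the read length, which is 2.97% of the words of Scd1 and 2.66% of those of Scd2, so reads from these stretches could be assigned to either gene. The words of Scd3 and Scd4, with 21814 and 5501 counts over the 30 libraries, were not compared.

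The stretches before the start of Fasn, Acly and Elovl6 are shown because with oxLDL the mRNA of the former 2 fell while that of Elovl6 rose. They were taken from RefSeq windows on GRCm38.p6 that hold 250 bases before a start site, which were found for 6 of the 10 genes, namely Acaca, Acly, Elovl6, Fasn, Gpam and Me1. They are written 5′ to 3′ on the strand of the gene, chr11:120824548-120824797 for Fasn, chr11:100528001-100528250 for Acly and chr3:129532136-129532354 for Elovl6, the last without the bases of the window that lie inside the annotated gene. Capitals mark the letters CCAAT, the core that nuclear factor Y binds, on either strand.
Fasn: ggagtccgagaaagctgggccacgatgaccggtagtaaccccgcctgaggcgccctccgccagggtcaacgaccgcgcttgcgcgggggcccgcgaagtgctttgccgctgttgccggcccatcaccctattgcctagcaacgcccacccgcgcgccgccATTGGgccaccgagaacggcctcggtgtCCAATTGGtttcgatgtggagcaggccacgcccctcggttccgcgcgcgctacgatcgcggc
Acly: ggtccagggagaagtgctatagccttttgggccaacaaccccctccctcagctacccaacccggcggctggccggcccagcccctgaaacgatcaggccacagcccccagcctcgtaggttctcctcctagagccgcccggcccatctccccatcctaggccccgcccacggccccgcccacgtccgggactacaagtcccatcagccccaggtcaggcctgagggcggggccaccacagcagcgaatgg
Elovl6: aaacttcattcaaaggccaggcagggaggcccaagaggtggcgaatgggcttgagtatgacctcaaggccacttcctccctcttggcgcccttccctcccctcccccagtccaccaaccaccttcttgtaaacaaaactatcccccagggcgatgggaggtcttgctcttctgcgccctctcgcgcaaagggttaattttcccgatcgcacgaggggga
Fasn held CCAAT 3 times, beginning 90 bases before the start on the strand opposite to the gene, 62 before it on the strand of the gene and 59 before it on the opposite strand, the last 2 of which overlap. Acly and Elovl6 held none, and Gpam and Me1 held 1 each in 1 of their 2 windows. CCAAT occurred in 33.8% of all 32851 windows of 250 bases in the RefSeq table, so a match is common. The E-box CACGTG (6.02% of windows) and the sterol regulatory element letters TCACNCCAC (1.05%) were in no window of the 6 genes, on either strand. These matches and absences describe the letters of these windows only.

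Per length, the desaturases led the pathway. In Control cells Scd1, the main adipocyte desaturase, was at 509 ± 45.5 FPKM (fragments scaled to transcript length and library depth, as deposited, mean ± SD, n = 5), and Scd2 at 322 ± 18.1 FPKM. The synthase Fasn followed at 139 ± 11.2 FPKM, and the 5 Control libraries of each of these 3 genes lay apart from those of the next in the order. Dgat1 (103 ± 10.3 FPKM), Dgat2 (89.5 ± 8.59 FPKM), Acly (72.0 ± 8.74 FPKM) and Me1 (62.1 ± 7.31 FPKM) formed a middle group in which each gene overlapped the next. Far below them were the enzymes of the committed steps, Gpam (14.6 ± 1.76 FPKM) and Acaca (12.1 ± 0.671 FPKM), which overlapped each other, and the elongase Elovl6 (3.02 ± 1.07 FPKM). The order changed little between groups. Scd1, Scd2 and Fasn held the top places and Elovl6 the lowest in all 6 groups, while with oxLDL Dgat2 (83.3 ± 5.01 FPKM) stood over Dgat1 (80.1 ± 7.46 FPKM), with overlapping libraries, and Me1 (61.0 ± 4.48 FPKM) over Acly (54.2 ± 2.50 FPKM), without overlap. With oxLDL + pNaKtide, Acaca (12.1 ± 2.84 FPKM) stood level with Gpam (11.6 ± 3.56 FPKM). The depth behind these values differed: a library held 77 to 510 counts on Elovl6 and 12223 to 41540 on Scd1.

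**Figure D1:**
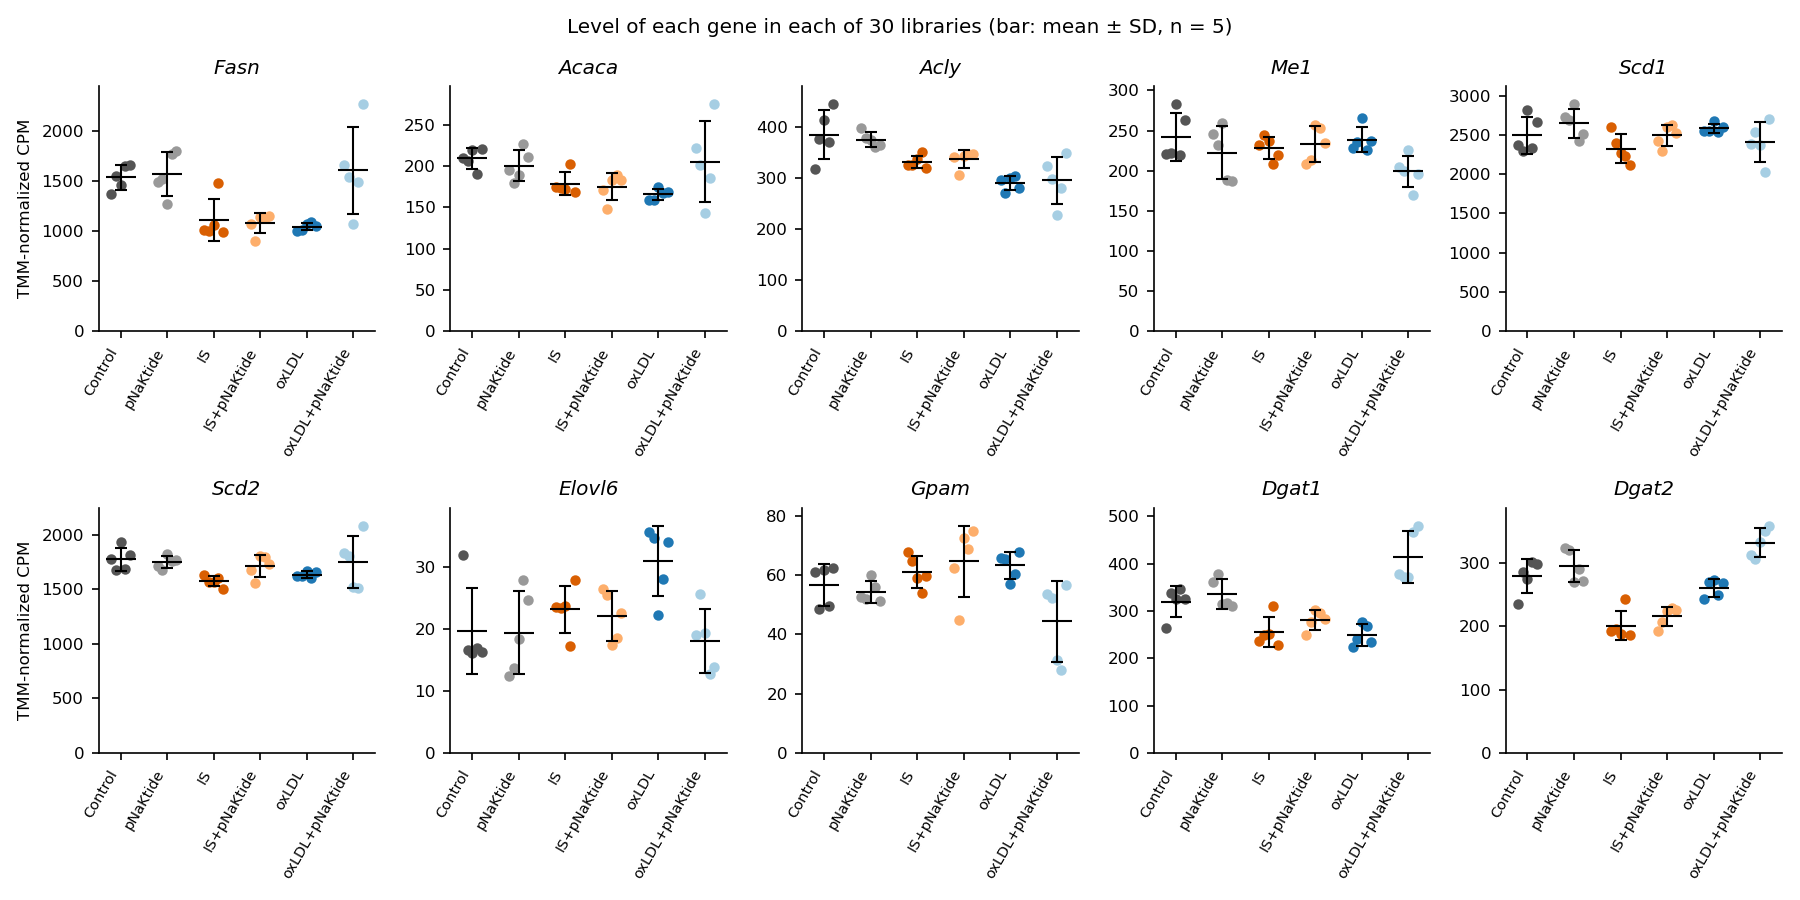
TMM-normalized CPM of the 10 genes in each of the 30 libraries, with the mean ± SD of each group of 5. Fasn, Acaca, Acly and Dgat1 sat lower with oxLDL than in Control cells, Dgat1 was highest with oxLDL + pNaKtide, and IS replicate 4 stood above the other IS libraries for Fasn and Dgat2.

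The comparison of oxLDL with Control asks what the oxidized lipoprotein did to the pathway. Fasn, Acaca, Acly and Dgat1 fell and Elovl6 rose, while Me1, Scd1, Scd2, Gpam and Dgat2 did not pass the test. This was 5 of 10 genes called, at a Benjamini-Hochberg adjusted p under 0.1 from the edgeR quasi-likelihood test over all 20139 genes, where 36.0% of all tested genes were called, so the share is read against a wide background. Of all tested genes 18.0% were called lower, against 4 of the 10, and 18.1% higher, against 1 of the 10. The median log2 fold change of the 10 genes was -0.11, and that of all tested genes was 0.045. In bulk RNA, fewer cells that express a gene and less of its RNA per cell cannot be told apart.

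Fasn, the synthase itself, read 1369, 1550.3, 1458, 1649.6 and 1659.8 CPM in Control replicates 1 to 5, and 1000.5, 1013, 1071, 1093 and 1051 CPM with oxLDL. The oxLDL libraries all lay under the lowest Control library, within a narrow band. Fasn fell by 0.56 on the log2 scale (SE 0.14, edgeR adjusted p = 0.00834), to 0.68 of the Control level. Acaca, the carboxylase before it, moved with it, from 209.6, 206, 219, 190.1 and 220.3 CPM in Control to 159, 159, 175, 167 and 169 CPM. These groups did not overlap either, and the change was -0.33 (SE 0.11, edgeR adjusted p = 0.0234). With scaling by library size alone it was -0.21 and lost the call (edgeR adjusted p = 0.121). Acly, which makes the acetyl-CoA for both, read 318, 377, 414, 370.4 and 445 CPM in Control and 296, 271, 301, 305 and 281 CPM with oxLDL. The oxLDL values again all lay lower than every Control value, and the change was -0.40 (SE 0.092, edgeR adjusted p = 0.00783).

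Me1 is a source of NADPH for the same synthase. Its mean was 242 ± 29.4 CPM in Control and 238 ± 15.6 CPM with oxLDL (SD, n = 5 each), a log2 change of -0.021 with a 95% interval of -0.21 to 0.17. With trends over GC content and gene length taken out it was -0.25 and was called (edgeR adjusted p = 0.033). The abundant desaturases were also close between the groups. Scd1 was at 2493 ± 232 CPM in Control and 2585 ± 56.9 CPM with oxLDL, a log2 change of 0.052 with an interval of -0.12 to 0.23. Scd2 read 1676 to 1933 CPM in Control and 1599.6 to 1669 CPM with oxLDL, so that its groups did not overlap, but its change of -0.12 (SE 0.084) did not pass the test (edgeR adjusted p = 0.297), although DESeq2 called it (-0.13, adjusted p = 0.0983). Groups without overlap in CPM were found for 4 of the 10 genes, Fasn, Acaca, Acly and Scd2, and for 8.35% of all tested genes.

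Elovl6, which lengthens palmitate, was the gene that rose. It read 32.0, 16.7, 16.1, 16.9 and 16.4 CPM in Control replicates 1 to 5 and 35.6, 34.7, 22.2, 28.1 and 34.1 CPM with oxLDL. Control replicate 1 alone reached into the oxLDL range, and the other Control libraries lay within 1 CPM of each other. The log2 change was 0.66 (SE 0.21, edgeR adjusted p = 0.0228), 0.91 without Control replicate 1, and 0.35 with the call lost (adjusted p = 0.174) once trends over GC content and gene length were taken out.

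Of the enzymes of triglyceride assembly, Dgat1 fell. It read 265, 338, 325, 347 and 325 CPM in Control and 223, 239.9, 277, 268 and 235 CPM with oxLDL, where only Control replicate 1 lay inside the oxLDL range. The log2 change was -0.36 (SE 0.10, edgeR adjusted p = 0.0118), and -0.12 with the call lost (adjusted p = 0.265) when trends over GC content and gene length were taken out. Its counterpart Dgat2, an unrelated enzyme with the same activity, was at 279 ± 27.1 CPM in Control and 261 ± 13.8 CPM with oxLDL, a log2 change of -0.10 with an interval of -0.27 to 0.071. Without Control replicate 1 and IS replicate 4 this was -0.15 and passed the test (edgeR adjusted p = 0.0993). Gpam, which starts glycerolipid assembly, was at 56.6 ± 6.98 CPM in Control and 63.2 ± 4.52 CPM with oxLDL, a log2 change of 0.16 with an interval of -0.12 to 0.44.

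Adding pNaKtide to oxLDL was followed by higher Fasn, Acaca, Dgat1 and Dgat2 and by lower Me1, Elovl6 and Gpam than with oxLDL alone. With 7 of 10 genes called in edgeR, the share again stood against a wide background, as 48.3% of all tested genes were called in this comparison, 22.1% higher and 26.1% lower. With scaling by library size alone the split of the 10 genes was 2 higher and 5 lower in place of 4 and 3, and that of all genes was 2696 and 7680 in place of 4458 and 5264. That scaling moved the median log2 change of all genes from -0.086 to -0.30 here, and from 0.045 to 0.17 for oxLDL against Control.

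With oxLDL + pNaKtide, Fasn read 1661, 1541, 1073, 1488 and 2267 CPM, a much wider spread than the 1000.5 to 1093 CPM with oxLDL alone. Replicate 3 lay inside the oxLDL range and the other 4 libraries above it. The log2 change was 0.62 (SE 0.14, edgeR adjusted p = 0.000501), and the mean of 1606 ± 431 CPM was close to the Control mean of 1537 ± 125 CPM (SD, n = 5 each). Acaca followed the same order over these libraries, with 222, 201, 143, 186 and 275 CPM. Its replicate 3 lay under every oxLDL library, and the change was 0.31 (SE 0.11, edgeR adjusted p = 0.0215). It rested in part on replicate 5, since without that library it was 0.19 and was not called (edgeR adjusted p = 0.126), and it was 0.077 with scaling by library size alone (adjusted p = 0.571).

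Acly, at the start of the route, was not called. With pNaKtide it read 323, 298, 227, 280.4 and 350.2 CPM, on both sides of the oxLDL range of 271 to 305 CPM, and the log2 change was 0.024 with an interval of -0.16 to 0.20. With scaling by library size alone it turned to -0.20 (edgeR adjusted p = 0.0316). Me1, the NADPH source, read 205, 199, 226, 170.3 and 196 CPM with pNaKtide and 229, 235, 265, 226 and 237 CPM with oxLDL alone. These groups did not overlap, and the change was -0.26 (SE 0.098, edgeR adjusted p = 0.0335), but it was lost without oxLDL + pNaKtide replicate 4 (-0.20, adjusted p = 0.134) and turned to 0.080 once trends over GC content and gene length were taken out.

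Elovl6 read 19.0, 25.6, 19.4, 12.7 and 13.8 CPM with oxLDL + pNaKtide, in the range of the Control and pNaKtide libraries, and only replicate 2 reached into the oxLDL range. The log2 change was -0.77 (SE 0.21, edgeR adjusted p = 0.00448), and -0.29 with the call lost (adjusted p = 0.226) when trends over GC content and gene length were taken out. Scd1 read 2023 to 2705 CPM with pNaKtide, a log2 change of -0.10 with an interval of -0.28 to 0.072, and Scd2 read 1512 to 2083 CPM, a change of 0.10 with an interval of -0.064 to 0.26. Neither desaturase was called in edgeR. Scaling by library size alone put the change of Scd1 at -0.33 (edgeR adjusted p = 0.0032), and DESeq2 called that of Scd2 at 0.13 (adjusted p = 0.0836).

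Both acyltransferases of the last step were called higher with pNaKtide, Dgat2 not under every setting. Dgat1 read 378, 371, 371, 466 and 480.4 CPM, above all oxLDL libraries and also above all Control libraries, and rose by 0.73 (SE 0.10, edgeR adjusted p = 9.15e-06), to 1.66 times the oxLDL level. Dgat2 read 314, 306, 333, 351 and 359 CPM against 243, 269.7, 273, 249 and 269 CPM with oxLDL alone, without overlap. It rose by 0.35 (SE 0.087, edgeR adjusted p = 0.00151). With scaling by library size alone this was 0.12 (edgeR adjusted p = 0.117), and with trends over GC content and gene length taken out 0.080 (adjusted p = 0.386). Gpam, at the start of the same route, went the other way, with 53.7, 52.2, 31.2, 27.8 and 56.8 CPM against 65.8, 65.3, 56.9, 60.2 and 67.9 CPM. All 5 values lay under the oxLDL range, replicates 3 and 4 far under it, and the change was -0.51 (SE 0.14, edgeR adjusted p = 0.00504). Without oxLDL + pNaKtide replicate 4, Dgat1 (0.70), Dgat2 (0.34), Fasn (0.65), Acaca (0.35), Elovl6 (-0.67) and Gpam (-0.38) were still called in edgeR. Groups without overlap were found for 4 of the 10 genes, Me1, Gpam, Dgat1 and Dgat2, and for 28.4% of all tested genes.

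**Figure D2:**
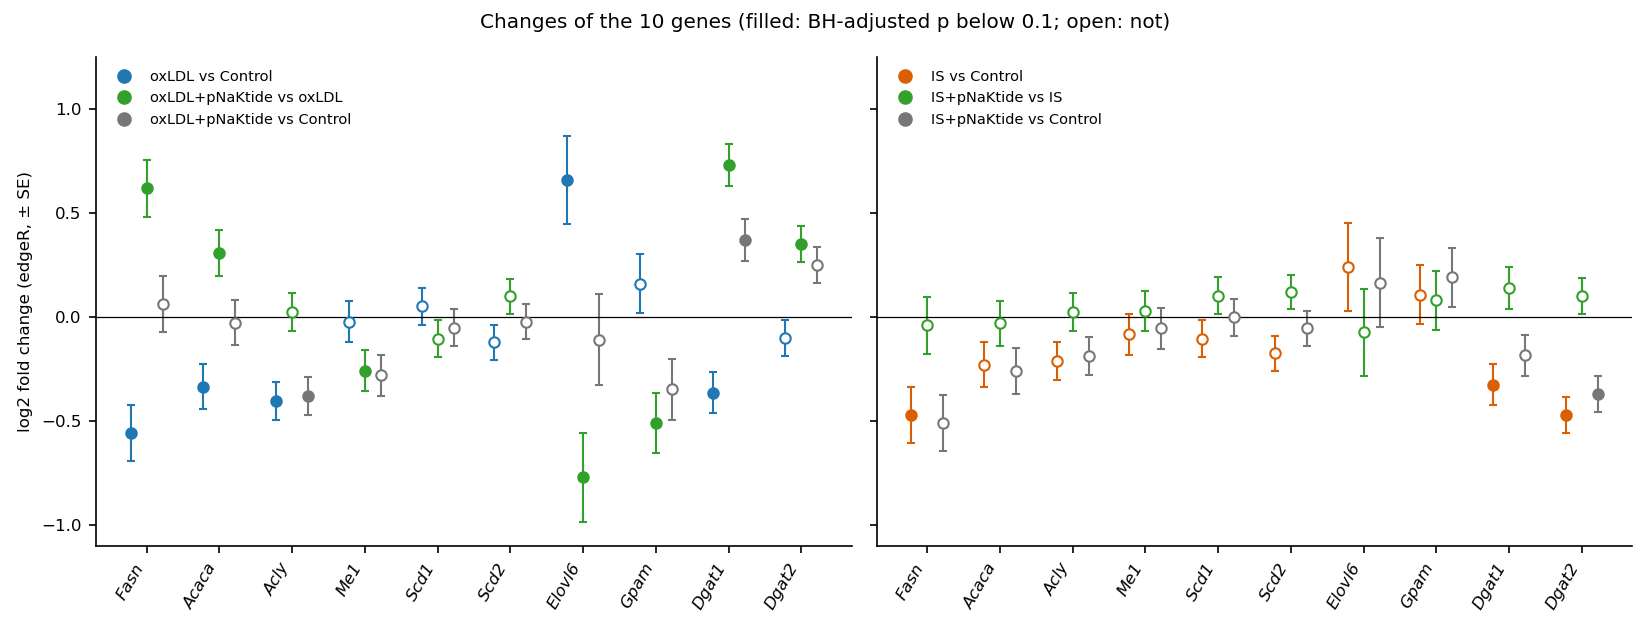
Log2 fold changes ± SE (edgeR) of the 10 genes, on the left for oxLDL and on the right for IS. Filled points passed an adjusted p of 0.1: with oxLDL Fasn, Acaca, Acly and Dgat1 lay under 0 and Elovl6 above it, with pNaKtide added Fasn, Acaca, Dgat1 and Dgat2 lay above 0 and Me1, Elovl6 and Gpam under it, and of the IS comparisons no change with pNaKtide added to IS was called.

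Whether the change with pNaKtide differed between cells with and without oxLDL was tested as an interaction. It differed for 4 of 10 genes, Fasn (0.59, SE 0.19, edgeR adjusted p = 0.0413), Acaca (0.37, SE 0.15, adjusted p = 0.093), Elovl6 (-0.75, SE 0.31, adjusted p = 0.0865) and Dgat1 (0.66, SE 0.14, adjusted p = 0.0179), against 24.6% of all tested genes. Scaling by library size alone put Acaca at 0.17 (adjusted p = 0.427), and taking out trends over GC content and length put Elovl6 at -0.37 (adjusted p = 0.409), without a call. The calls of Fasn and Dgat1 held in all 11 alternatives, where their differences fell as low as 0.38 and 0.36. They also held in all 20 fits that left out 1 library of the 4 groups. Those of Acaca and Elovl6 held in 7 of 20 each, with an adjusted p of up to 0.218 for Acaca and 0.185 for Elovl6. Acaca was lost without any of Control replicates 2 to 5, oxLDL replicates 1, 2 and 5, oxLDL + pNaKtide replicates 1, 4 and 5 or pNaKtide replicates 1 to 3. Elovl6 was lost without the same Control, oxLDL and oxLDL + pNaKtide libraries or pNaKtide replicates 3 to 5. For Gpam (-0.45, adjusted p = 0.124) and Dgat2 (0.27, adjusted p = 0.125) the difference did not pass the test. Gpam passed in 6 of 11 alternatives, with DESeq2 among them (adjusted p = 0.0966), and Dgat2 in 4 of 11, also with DESeq2 (adjusted p = 0.057), while its difference ranged from -0.028 to 0.32.

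Against Control, cells with oxLDL + pNaKtide had lower Acly and higher Dgat1, 2 of 10 genes called in edgeR against 5.20% of all tested genes. Acly was at 296 ± 46.6 CPM against 385 ± 47.9 CPM (log2 change -0.38, SE 0.092, adjusted p = 0.0192) and Dgat1 at 413 ± 54.9 CPM against 319.8 ± 32.1 CPM (0.37, SE 0.10, adjusted p = 0.0361; SD, n = 5 each). Acly was thus low in both oxLDL groups, and Dgat1 was low with oxLDL alone and high with both agents. Dgat2 lay above all Control libraries (0.25, edgeR adjusted p = 0.11) and Me1 was lower (-0.28, adjusted p = 0.12), both without a call. Each of these 2 passed in 6 of 11 alternatives, among them DESeq2 (adjusted p = 0.0174 for Dgat2 and 0.0661 for Me1). Without Control replicate 1, where Dgat1 was lowest, the change of Dgat1 was 0.31 and was not called (edgeR adjusted p = 0.106), and without Control replicate 4 the count of called genes was 4. Both calls were lost in an edgeR fit of these 2 groups alone, with adjusted p of 0.24 for Acly and 0.186 for Dgat1, but that fit called 11 of 20126 genes in all, against 1047 with all groups. The comparison shares its Control libraries with that of oxLDL alone.

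With IS, Fasn, Dgat1 and Dgat2 fell against Control and no gene of the 10 rose. In edgeR 3 of 10 genes were called, against 7.94% of all tested genes, and 3.49% of all tested genes were called lower. Dgat2 carried the firmest of these calls. It read 235, 286, 275, 303 and 298 CPM in Control and 192, 196, 189, 243 and 187 CPM with IS. Only IS replicate 4 reached into the Control range, and the change was -0.47 (SE 0.087, edgeR adjusted p = 0.0113). Fasn read 1016, 1005, 1062, 1476 and 993 CPM with IS, where again replicate 4 alone lay in the Control range, and changed by -0.47 (SE 0.14, edgeR adjusted p = 0.0694). Dgat1 read 237, 250.3, 252, 311 and 227 CPM, with a change of -0.32 (SE 0.10, edgeR adjusted p = 0.0789). Without IS replicate 4 these changes were larger, -0.55 for Dgat2, -0.59 for Fasn and -0.40 for Dgat1.

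Left out together, Control replicate 1 and IS replicate 4 gave 6 called genes, with Acaca (-0.28, edgeR adjusted p = 0.0514), Acly (-0.29, adjusted p = 0.0103) and Elovl6 (0.58, adjusted p = 0.0267) added to the 3. All genes did likewise, since 9140 of 20139 were called in that fit, 4791 higher and 4349 lower, against 7.94% with all libraries. With either of these 2 libraries left out alone the count was 5, and without any other library of the 2 groups (Control replicates 2 to 5, IS replicates 1, 2, 3 and 5) it was 1, Dgat2. A fit of the IS and Control libraries alone called 0 of 20128 genes in edgeR (3465 at an unadjusted p under 0.05), and so none of the 10, with an adjusted p of 0.256 for Dgat2 and Fasn and 0.257 for Dgat1. DESeq2 with all groups called 3160 genes. With all libraries, Acaca (168 to 203 CPM against 190.1 to 220.3 CPM, edgeR adjusted p = 0.185), Acly (332 ± 12.2 CPM against 385 ± 47.9 CPM, adjusted p = 0.154) and Scd2 (1574 ± 47.0 CPM against 1777 ± 106 CPM, adjusted p = 0.193) did not pass the test in edgeR, while DESeq2 called Scd2 (-0.18, adjusted p = 0.0488) and Acly (-0.22, adjusted p = 0.0746). Scd2 was the only gene of the 10 whose IS and Control libraries did not overlap, as held for 1.81% of all tested genes. Elovl6 was at 23.1 ± 3.83 CPM, Gpam at 61.0 ± 5.33 CPM, Scd1 at 2320.4 ± 184 CPM and Me1 at 228 ± 14.2 CPM with IS.

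Adding pNaKtide to IS was followed by no called change in the 10 genes, and edgeR called 0 of all tested genes here (0%), with 564 at an unadjusted p under 0.05 and 14 called by DESeq2. The log2 changes of the 10 genes ran from -0.073 for Elovl6 to 0.14 for Dgat1. For Fasn the change was -0.040 with a 95% interval of -0.30 to 0.22, which does not reach the 0.62 seen with pNaKtide added to oxLDL. Dgat2 read 193, 207, 224, 229 and 227 CPM with IS + pNaKtide and lay under all Control libraries. Against Control it was the 1 gene of 10 called (-0.37, SE 0.087, edgeR adjusted p = 0.0741), where 0.358% of all tested genes were called and 0.218% were called lower. That call was lost (count 0) without any single library of the 2 groups but Control replicate 1, without which 4 genes were called, Fasn, Acly, Dgat1 and Dgat2. Fasn, at 1080.1 ± 103 CPM, was also under every Control library (-0.51, edgeR adjusted p = 0.124). It passed in 7 of 11 alternatives, among them DESeq2 (adjusted p = 0.0202), edgeR on the 2 groups alone (0.0429, where 1152 of 20127 genes were called against 72 with all groups) and edgeR with trends over GC content and length taken out (0.0364). As an interaction, no difference in the change with pNaKtide between cells with and without IS was called for the 10 genes. For Fasn its 95% interval was -0.45 to 0.30. EdgeR called 0 of all tested genes (0%), with 619 at an unadjusted p under 0.05 and 0 called by DESeq2.

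Alone, pNaKtide was followed by 0 called changes in the 10 genes, with log2 changes from -0.12 for Me1 to 0.087 for Scd1, and 0.00497% of all tested genes were called in edgeR (1 gene, with 1233 at an unadjusted p under 0.05 and 57 called by DESeq2). Between IS and oxLDL 0 of the 10 genes were called in edgeR, against 0.0149% of all tested genes (3 genes, with 1047 at an unadjusted p under 0.05 and 41 called by DESeq2). Dgat2 was nearest, with IS at 187 to 243 CPM and oxLDL at 243 to 273 CPM, without overlap, a log2 difference of -0.37 (SE 0.087, edgeR adjusted p = 0.278). DESeq2 called it (adjusted p = 0.011), as did edgeR with scaling by library size alone (0.017), with the stricter filter of more than 14 counts per library (0.0404), without Control replicate 1 and IS replicate 4 (0.019), and with trends over GC content and length taken out (0.000405). For Fasn the difference between IS and oxLDL was 0.087 with an interval of -0.18 to 0.35.

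Summed over the 10 genes, the pathway took 0.732 ± 0.0437% of the normalized counts in Control, 0.747 ± 0.0038% with pNaKtide, 0.629 ± 0.0332% with IS, 0.661 ± 0.0417% with IS + pNaKtide, 0.656 ± 0.0144% with oxLDL and 0.727 ± 0.0972% with oxLDL + pNaKtide (SD, n = 5 each). As a share of all deposited counts the order was different, with 0.715 ± 0.0421% in Control, 0.665 ± 0.0394% with IS, 0.701 ± 0.0131% with oxLDL and 0.664 ± 0.0782% with oxLDL + pNaKtide. Most of these counts came from Scd1, Scd2 and Fasn. These sums are descriptions with no test.

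The 10 genes span a wide range of GC content, and changes over all genes moved with it. The longest transcript of Fasn holds 57.9% G and C, that of Dgat1 56.5%, Dgat2 56.3%, Acly 52.1%, Scd2 49.5%, Acaca 49.1%, Gpam 48.6%, Scd1 47.1%, Me1 45.1% and Elovl6 44.0%, where the median of 20107 genes was 49.4%. Across all genes with enough counts, the tenth with the lowest GC content had a median log2 change of 0.58 with oxLDL against Control and the tenth with the highest had -0.33. With pNaKtide added to oxLDL these medians were -0.75 and 0.37, and with IS against Control 0.41 and -0.21. When the trend of each library over GC content and gene length was taken out, Fasn (-0.40), Acaca (-0.48) and Acly (-0.31) stayed lower with oxLDL, Me1 joined them (-0.25, edgeR adjusted p = 0.033), and Elovl6 (0.35, adjusted p = 0.174) and Dgat1 (-0.12, adjusted p = 0.265) lost their calls. With pNaKtide added to oxLDL, Fasn (0.48), Acaca (0.56), Dgat1 (0.46) and Scd2 (0.20) were higher and Gpam (-0.32) was lower, and Elovl6 (-0.29, adjusted p = 0.226), Dgat2 (0.080, adjusted p = 0.386) and Me1 (0.080, adjusted p = 0.483) lost their calls. With IS, Fasn (-0.35), Acaca (-0.31), Me1 (-0.25) and Dgat2 (-0.31) were called lower and Dgat1 (-0.16, adjusted p = 0.193) was not. Fasn and Acaca thus kept their direction and their calls in both oxLDL comparisons, and Elovl6 was called only with the trend left in. Of all 20139 genes, the fit with trends out called 1714 higher and 2294 lower with oxLDL. It called 3795 and 3601 with pNaKtide added to oxLDL, and 394 and 431 with IS.

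**Figure D3:**
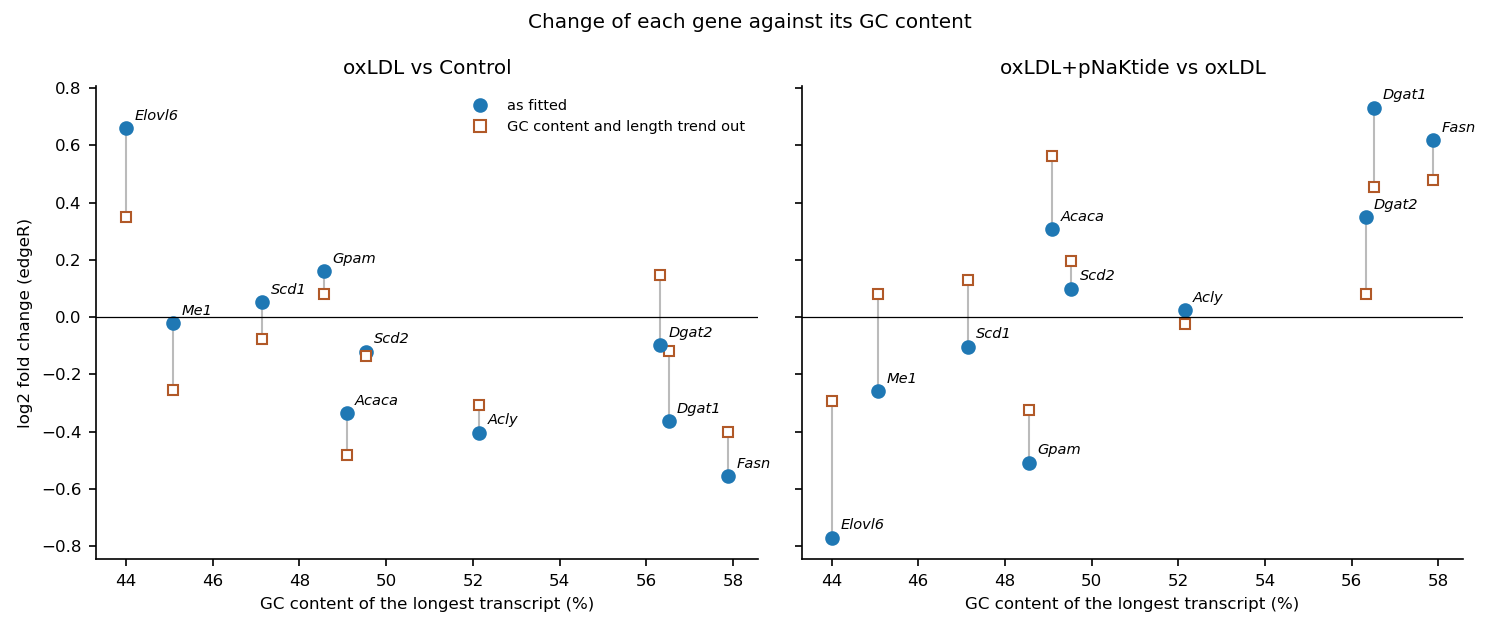
Log2 fold change (edgeR) of each gene against the GC content of its longest transcript, as fitted (circles) and with the trend over GC content and length taken out (squares). The squares lie nearer to 0 than the circles for Elovl6 and Dgat1 and farther from 0 for Acaca in both panels, while Scd1 changes sign in both, Dgat2 with oxLDL, and Me1 and Acly with pNaKtide added to oxLDL.

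Most of the listed genes that feed the pathway fell with oxLDL. Of 12 listed genes for citrate export, acetyl-CoA and NADPH supply, 9 fell and 0 rose in edgeR, with a median log2 change of -0.48. The oxLDL and Control libraries overlapped for all 12, while 8.35% of all tested genes had groups without overlap. With TMM scaling 18.0% of all tested genes were called lower in this comparison. With scaling by library size alone 8 of the 12 fell and 1 rose, beside 2276 and 4963 of all 20139 genes. Listed genes that fell included the acetyl-CoA synthetase Acss2 (-0.62, edgeR adjusted p = 0.0046) and the mitochondrial citrate carrier Slc25a1 (-0.65, adjusted p = 0.00749). With trends over GC content and length taken out Acss2 was at -0.81 and Slc25a1 at -0.33, both still called. With pNaKtide added to oxLDL 9 of the 12 rose and 1 fell, where 22.1% of all tested genes were called higher and 26.1% lower, led by Pgls of the pentose phosphate pathway (1.12, edgeR adjusted p = 5.1e-05) and Slc25a1 (0.82, adjusted p = 5.12e-05). The gene that fell was Idh1, the cytosolic NADP-dependent isocitrate dehydrogenase (-0.69, edgeR adjusted p = 3.92e-05). With the trends out Slc25a1 was at 0.40 and Idh1 at -0.32, both still called. With IS 2 of the 12 fell, Pcx, the pyruvate carboxylase (-0.40, edgeR adjusted p = 0.0698), and Slc25a1 (-0.42, adjusted p = 0.0912), where 3.49% of all tested genes were called lower. Without Control replicate 1 and IS replicate 4 the count was 10, in a fit that called 4349 of 20139 genes lower. With trends over GC content and length taken out it was 1, and Slc25a1 was at -0.22 without a call (adjusted p = 0.144).

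Of 17 listed regulators of lipogenesis 4 rose and 5 fell with oxLDL, where 18.1% of all tested genes were called higher and 18.0% lower. With scaling by library size alone 6 rose and 4 fell, beside 4963 and 2276 of all 20139 genes. With pNaKtide added to oxLDL 5 of the 17 rose and 7 fell, against 22.1% and 26.1% of all tested genes, or 4 and 8 with that scaling and 5 and 3 with trends over GC content and length taken out. Over all 20139 genes that scaling gave 2696 higher and 7680 lower, and the fit with trends out 3795 and 3601. Srebf1, which encodes SREBP-1, read 107 to 150.2 CPM in Control and 87.6 to 102 CPM with oxLDL, without overlap, and fell by 0.37 on the log2 scale (SE 0.089, edgeR adjusted p = 0.00818). That call was lost with trends over GC content and length taken out (-0.14, edgeR adjusted p = 0.158). Its escort Scap fell (-0.48, edgeR adjusted p = 0.00573), as did Nr1h3, which encodes LXRα (-0.55, adjusted p = 0.00818), while Insig2 (0.45, adjusted p = 0.0399) and the protease gene Mbtps2 (0.54, adjusted p = 0.0619) rose. Insig2 also lost its call with these trends out (0.28, edgeR adjusted p = 0.119), while Scap (-0.27) and Nr1h3 (-0.27) kept theirs at smaller changes. Mlxipl, which encodes ChREBP, rose (0.75, edgeR adjusted p = 0.0364) at a very low level, 0.633 to 1.70 CPM in Control and 1.85 to 2.11 CPM with oxLDL. With pNaKtide added to oxLDL, Nr1h3 (0.73, edgeR adjusted p = 7.33e-05), Usf2 (0.65, adjusted p = 1.71e-05) and Srebf1 (0.23, adjusted p = 0.0329) were among those that rose, and Insig1 (-0.72, adjusted p = 0.000294) and Mbtps2 (-1.02, adjusted p = 0.000638) among those that fell. With the trends out the change of Srebf1 was 0.00060 (edgeR adjusted p = 0.997), and that of Nr1h3 was 0.40 and still called. Where IS was given, with 3.49% of all tested genes called lower, 2 of the 17 fell, Nr1h3 (-0.53, edgeR adjusted p = 0.0487) and Scap (-0.33, adjusted p = 0.0662), or 7 fell and 3 rose without Control replicate 1 and IS replicate 4, beside 4349 and 4791 of all 20139 genes. With the trends out 1 of the 17 fell, and Scap was not called (-0.19, edgeR adjusted p = 0.141). Srebf1 was not called with IS (-0.18, edgeR adjusted p = 0.19).

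Of 17 other genes of elongation and desaturation 16 were tested, and with oxLDL 6 fell and 0 rose, beside 18.0% of all tested genes called lower and 18.1% higher. With scaling by library size alone 3 rose, beside 4963 of all 20139 genes. Without Control replicate 1 and IS replicate 4, 2 rose, beside 5055 of all genes. Elovl6 thus rose while none of these rose with it in the TMM fit with all libraries. The desaturases Fads1 (-0.60, edgeR adjusted p = 0.00222) and Fads3 (-0.50, adjusted p = 0.00573) fell. When pNaKtide was added to oxLDL 8 of the 16 rose and 3 fell, against 22.1% and 26.1% of all tested genes, or 7 and 7 with scaling by library size alone, led by Elovl1 (0.84, edgeR adjusted p = 2.05e-05) and the reductase gene Tecr (0.98, adjusted p = 3.69e-05). Hacd4 (-0.64, adjusted p = 0.0209) and Elovl5 (-0.17, adjusted p = 0.0635) were among those that fell. With trends over GC content and length taken out 11 rose and 0 fell, beside 3795 and 3601 of all 20139 genes. Hacd4 was then at -0.040 (edgeR adjusted p = 0.923). With IS 3 of the 16 fell, Tecr, Fads3 (-0.35, edgeR adjusted p = 0.0645) and Fads1 (-0.31, adjusted p = 0.0891), beside 3.49% of all tested genes called lower. Without these 2 libraries 7 fell and 1 rose, beside 4349 and 4791 of all 20139 genes. With the trends out 1 fell, and Fads1 was not called (-0.24, edgeR adjusted p = 0.108).

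Of 20 other genes of glycerolipid assembly 18 were tested, and with oxLDL 4 fell and 1 rose, or 8 and 1 without Control replicate 1 and IS replicate 4, where 4536 of all 20139 genes fell. With all libraries 18.1% of all tested genes were called higher and 18.0% lower. The acyltransferases Agpat4 (-0.55, edgeR adjusted p = 0.00702) and Agpat3 (-0.43, adjusted p = 0.00866) fell, and the lipin gene Lpin2 rose (0.23, adjusted p = 0.0673), a call lost with trends over GC content and length taken out (0.13, adjusted p = 0.169). Under oxLDL + pNaKtide 10 of the 18 rose against oxLDL and 2 fell, where 22.1% of all tested genes were called higher and 26.1% lower, or 6 and 4 with scaling by library size alone. Agpat4 (0.69, edgeR adjusted p = 3.89e-05) and Agpat2 (0.66, adjusted p = 0.000134) rose with Dgat1 and Dgat2, and Lpin2 fell with Gpam (-0.48, adjusted p = 0.000243). With IS 3 fell, Agpat3, Gpat3 (-0.23, edgeR adjusted p = 0.0851) and Gpat4 (-0.26, adjusted p = 0.0851), and 1 rose, Dgat2l6, which had 39 counts over the 30 libraries, where 7.94% of all tested genes were called and 3.49% lower. Without the same 2 libraries 9 fell and 2 rose with IS, beside 4349 and 4791 of all 20139 genes. With the trends out 1 fell and 0 rose, and Agpat3 was not called (-0.23, edgeR adjusted p = 0.179).

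**Figure D4:**
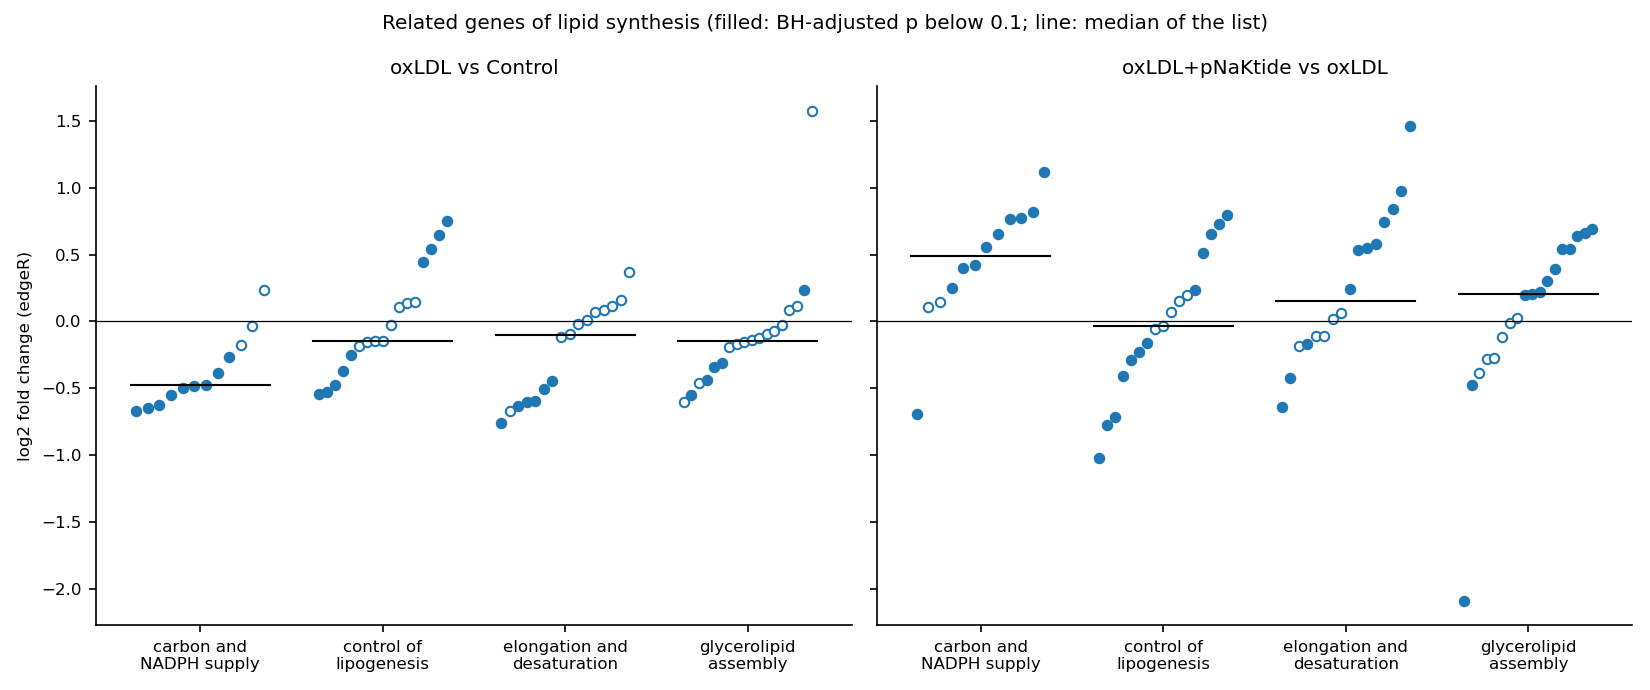
Log2 fold change (edgeR) of each tested gene in 4 lists around the pathway, with the list median as a line and filled points for an adjusted p under 0.1. The supply genes lie mostly under 0 with oxLDL (median -0.48) and mostly above 0 with pNaKtide added to oxLDL (median 0.49), while the regulators spread to both sides.

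Markers of differentiation are given beside the shares of all tested genes, which were 18.1% higher and 18.0% lower with oxLDL and 22.1% higher and 26.1% lower with pNaKtide added to oxLDL. With oxLDL 3 of 10 adipocyte markers fell, Cfd (-0.53, edgeR adjusted p = 0.0269), Cidec and Cebpa (-0.30, adjusted p = 0.0451), and 5 rose when pNaKtide was added, led by Retn (0.71, adjusted p = 0.000136) and Cfd (0.90, adjusted p = 0.000202), with 0 that fell. DESeq2 called 4 lower and 1 higher with oxLDL and 7 higher with pNaKtide added, beside 3952, 3701 and 4749 of all 20131 genes. With scaling by library size alone the splits were 2 higher and 1 lower with oxLDL and 3 higher and 1 lower with pNaKtide added. That scaling split all 20139 genes into 4963 higher and 2276 lower with oxLDL, and 2696 and 7680 with pNaKtide added. With IS 4 of the 10 fell, where 3.49% of all tested genes were called lower, in the same comparison in which Fasn, Dgat1 and Dgat2 fell. Without Control replicate 1 and IS replicate 4, 6 of the 10 fell with oxLDL and 7 with IS, in fits that called 4536 and 4349 of all 20139 genes lower. The 8 preadipocyte and fibroblast markers held 2 that fell with oxLDL, Dlk1 (-0.69, edgeR adjusted p = 0.0369) and Col1a1 (-0.57, adjusted p = 0.0481), 2 that rose and 1 that fell with pNaKtide added to oxLDL, and 3 that fell with IS, again beside 3.49% of all tested genes, or 6 without these 2 libraries. With trends over GC content and length taken out 1 adipocyte marker and 0 preadipocyte and fibroblast markers were called with oxLDL. With scaling by library size alone 1 rose and 1 fell with oxLDL, and 2 rose and 3 fell with pNaKtide added. The sums of markers are CPM by library size alone, so they are not on the scale of the TMM fold changes. Summed over the 10 adipocyte markers, libraries ranged from 13552 to 15805 CPM in Control, 13398 to 16703 CPM with oxLDL, 14294 to 15327 CPM with oxLDL + pNaKtide, 11650 to 13661 CPM with IS and 12511 to 14333 CPM with IS + pNaKtide. For the preadipocyte and fibroblast markers the sums were 4464 to 5523 CPM in Control, 3847 to 4776 CPM with oxLDL, 3699 to 4745 CPM with oxLDL + pNaKtide, 3182 to 4465 CPM with IS and 3055 to 4090 CPM with IS + pNaKtide. None of the 4 tested macrophage, blood cell or endothelial markers was called in these 3 comparisons in edgeR with all libraries and TMM scaling, and 2 fell with oxLDL and 1 with IS without the same 2 libraries. The part of the marker levels in the changes of the 10 genes was not tested.

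The genes whose pattern over the 30 libraries was most like that of a member were sought among 12580 genes, by the root mean square difference of centred log2 CPM. Fasn, whose own spread by that measure was 0.33, was nearest to Mfn2 (0.10), a gene of mitochondrial fusion, and C3 (0.11), the complement component. Dgat1 (spread 0.28) was nearest to Samm50, Reep5 and the lipase gene Lipe (0.080 to 0.084). Scd1 and Scd2 were the closest pair within the 10 genes, at 0.095, beside own spreads of 0.12 and 0.11. Scd2 was nearer to the diacylglycerol kinase gene Dgkd (0.070) and the lipin gene Lpin1 (0.072). Dgat1 and Dgat2 differed by 0.17, Fasn and Acaca by 0.18, and Elovl6 was nearest to Eya1 and Prrx1 (0.17 each) beside an own spread of 0.42. These are descriptions over libraries that share the trend over GC content, and carry no test.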

How the data were processed

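RNA of 3T3-L1 cells was sequenced as stranded mRNA libraries, 5 in each of 6 groups. The authors trimmed the paired-end reads with Trimmomatic 0.38, aligned them to GRCm38 with HISAT2 2.1.0 and counted reads per gene with GenomicAlignments, and these deposited counts are neither normalized nor pooled. The FPKM values, as deposited by the authors, were made with DESeq2 1.20.0. Which annotation release was counted, and whether by strand, is not given in the sources used here. In the labels the text on extraction names adipose tissue, and the source is 3T3 cells.

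Counts of genes with more than 14 over the 30 libraries entered edgeR 4.0.16 (R 4.3.3), where TMM factors and a robust quasi-likelihood model over the 6 groups were used. This gave 8 comparisons of groups and 2 interactions, with two-sided p-values adjusted by the Benjamini-Hochberg method over all tested genes and a threshold of 0.1. The common biological coefficient of variation was 14.0%. Values are TMM-normalized CPM, except the sums of marker lists, which were scaled by library size alone. FPKM was used to compare levels between genes. GC content is that of the longest GENCODE M21 transcript.

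The members and lists were chosen with earlier results of these data known. Of each related list, up to 2 called genes per direction were named for a comparison, by smallest adjusted p and over a floor of 1 in mean log2 CPM, with Srebf1, Mlxipl and Nr1h3 by name. Genes named beside them to account for small counts were picked after their values were seen. Alternatives were DESeq2 1.42.0, its size factors, library size alone, 2 other filters, an adjusted p of 0.05, a replicate block, the compared groups alone, limma-trend 3.58.1 on log2(FPKM + 1) at a mean FPKM of at least 0.5, offsets for trends over GC content and length, and leaving out libraries. No libraries of a group were duplicates (lowest chi-square per degree of freedom 1.30 over 60 pairs). The test was tested on simulated data. Deposited DESeq2-normalized counts were not used.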

Additional observations from a re-analysis of the deposited data

Results flagged for a closer look

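Within 60 groups of 5 libraries, 1 for each gene and treatment, 8 held a library far from the other 4, by Dixon's test at 95%, which chance flags in about 1 of 20 groups. IS replicate 4 was the highest IS library for Fasn (1476 CPM, others 993 to 1062), Acaca (203 CPM, others 168 to 175), Dgat1 (311 CPM, others 227 to 252) and Dgat2 (243 CPM, others 187 to 196). Control replicate 1 was the highest Control library for Elovl6 (32.0 CPM, others 16.1 to 16.9) and the lowest for Dgat1 (265 CPM, others 325 to 347). Acly was low in IS + pNaKtide replicate 2 (307 CPM, others 341 to 348), and Me1 was high in oxLDL replicate 3 (265 CPM, others 226 to 237).

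The change with pNaKtide differed between cells with and without oxLDL in edgeR for Fasn (0.59, adjusted p = 0.0413), Acaca (0.37, adjusted p = 0.093), Elovl6 (-0.75, adjusted p = 0.0865) and Dgat1 (0.66, adjusted p = 0.0179).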

How the results depend on the processing

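Calls depended on Control replicate 1 and IS replicate 4, on the fit of the compared groups alone and on trends over GC content and length, and the cause was not tested. Over 1100 values of the 10 genes under other settings, 1020 kept direction and side of the threshold, 26 lost a call, 52 gained 1 and 2 reversed, both with pNaKtide added to oxLDL (Acly -0.20 with library size alone, Me1 0.080 with trends out). A change of sign was not counted where neither value was called. Over 1200 values with 1 library left out, 1126 kept both, 54 lost a call, 20 gained 1 and 0 reversed. Most of the 1100 and 1200 values were not called in the main fit, and only a called value could lose its call.

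Members called with IS against Control were 5 with DESeq2, 1 at an adjusted p of 0.05, 0 with the compared groups alone, 6 without Control replicate 1 and IS replicate 4, and 1 to 5 with 1 library left out. With oxLDL + pNaKtide against Control they were 4 with DESeq2, limma-trend, more than 14 counts per library or library size alone, 0 with the compared groups alone, and 1 to 4 with 1 library left out. With IS + pNaKtide against Control they were 2 with DESeq2, more than 14 counts per library, the compared groups alone, limma-trend or trends out, 0 at an adjusted p of 0.05 or with genes of at least 1 count, 5 without the 2 libraries, and 0 to 4 with 1 left out. In this comparison DESeq2 called 1486 of 20131 genes and the fit without the 2 libraries 6517 of 20139, against 72 in the main fit. Between IS and oxLDL 1 was called with DESeq2, more than 14 counts per library, library size alone, trends out or without the 2 libraries. The oxLDL by pNaKtide difference held 2 with genes of at least 1 count, at an adjusted p of 0.05 or with the compared groups alone, and 2 to 6 with 1 library left out (2 without Control replicates 2 to 5, oxLDL replicates 1, 2 or 5, oxLDL + pNaKtide replicate 4 or pNaKtide replicate 3).

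Libraries share replicate numbers, and of 75 pairs with the same number 37 correlated by over 0.1 (median 0.10, range -0.66 to 0.79, median of other pairs -0.03). Same-number pairs were thus somewhat more alike, and whether the numbers pair the libraries is open. The main fit did not use them. With the replicate number as a block, 4 genes were called for oxLDL + pNaKtide against Control and 2 for IS + pNaKtide against Control. Over all 20139 genes the block moved the calls from 1047 to 1653 and from 72 to 1338 in these comparisons. For IS against Control it moved them from 1599 to 3423. Each other count of members stayed within 1.5 times.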
